A study of Homo sapiens with 14 samples.

Results

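Untreated (Dox−) Hep3BTAp73β cells were followed over time in culture, and the comparison rested on 7 of the 14 arrays of the series. The members were the arrays labelled as untreated, 2 at 12 h, 2 at 24 h and 3 at 48 h, each labelled as a biological replicate. Hep3B is a cell line from a human hepatocellular carcinoma, and Hep3BTAp73β cells carry a doxycycline-inducible TAp73β, the transcriptionally active β form of p73, which was left uninduced in these cultures. The other 7 arrays, from induced (Dox+) cells given doxycycline at 1 µg/ml for 12 h (2 arrays), 24 h (2) or 48 h (3), served for comparison with the untreated cells. They also entered the choice of probe set for each gene and the fits of all 14 arrays. All cells were of this 1 line, so the values describe 1 line and not hepatocytes or tumours in general. The deposited values were RMA signals on the log2 scale from Affymetrix U133 Plus 2.0 arrays, and each gene was read from 1 probe set, the brightest of those assigned to it alone, which gave 19775 genes.

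As background, hepatocytes make most plasma proteins, bile acids and much of the body's cholesterol, and hepatoma lines keep a part of that programme. Sterol and fatty acid synthesis genes are driven by the SREBP factors, which are released when membrane sterols are low or insulin signalling is high. FOXO factors, the endoplasmic reticulum stress sensors and the NF-κB pathway each drive their own sets of genes, and control cultures are usually read as a fixed baseline for all of them.

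Albumin (ALB) stood at 14.44 and 14.39 at 12 h, then at 14.38 and 14.42, and 48 h arrays read 14.38, 14.42 and 14.33, so that its difference between 48 h and 12 h was -0.04 ± 0.10 (log2, SE, adjusted p = 0.796). The 3 dimmer probe sets of ALB read 0.65 to 0.81 higher at 48 h, and 1 of them was called. The TP73 transcript stayed between 5.82 and 6.08 on all 7 arrays (adjusted p = 0.623). The 12 h arrays stood apart in a measure of RNA quality, the 3′ signal minus the 5′ signal of control transcripts. For ACTB it was 1.60 and 1.5 at 12 h, then 0.95 and 0.81, and 0.86 to 0.89 on the 48 h arrays (log2), and for GAPDH it was 1.12 and 0.89 at 12 h against 0.41 to 0.49 on the 5 later Dox− arrays. Any difference between 12 h and a later time therefore moves with this measure, whereas the Dox− 24 h and 48 h arrays had nearly the same ratios. Counts from a fit with this measure as a covariate are given below, and its part as a cause was not tested. The 24 h replicates were unlike each other: on the first principal component (54.3% of the variance) replicate 1 lay at 11, near the 48 h arrays (17.7 to 19.9), and replicate 2 at -14.4, towards the 12 h arrays (-23.5 and -29.9). The spread between replicates (root mean variance) went from 0.209 at 12 h through 0.184 to 0.105. No scan date was given, so time and any processing batch cannot be told apart, and in bulk RNA the share of cells that express a gene and the RNA per cell cannot be told apart.

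**Figure D1:**
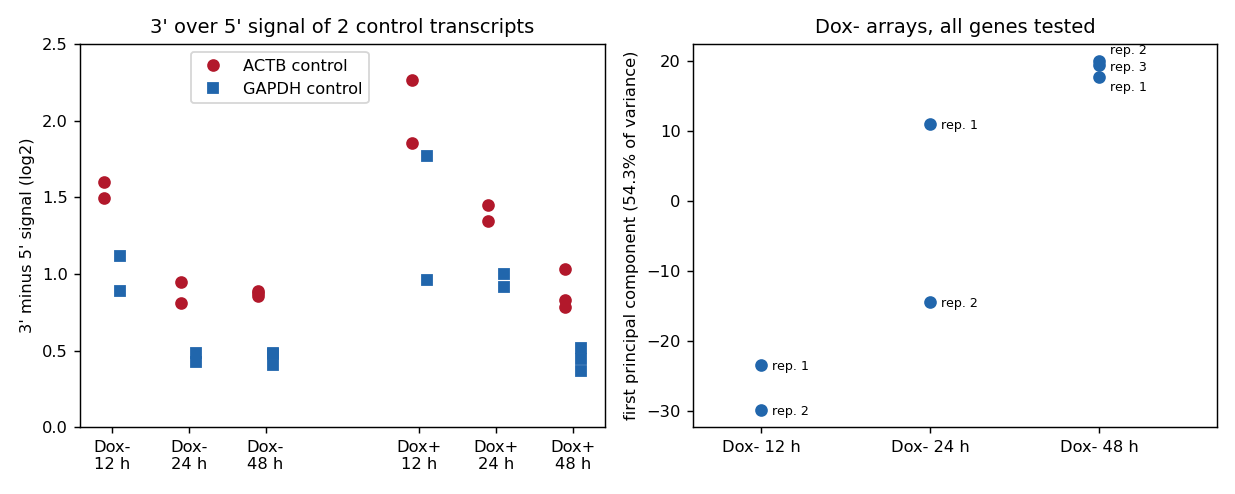
Left, 3′ minus 5′ signal (log2) of the ACTB and GAPDH control transcripts on the 14 arrays, 1 point per array, by treatment and time: the Dox− 12 h arrays (1.60 and 1.5 for ACTB) lie above the Dox− 24 h and 48 h arrays (0.81 to 0.95). Right, first principal component (54.3% of the variance over 19775 genes) of the 7 Dox− arrays: the 24 h replicates fall at 11 and -14.4, between the 12 h and the 48 h arrays.

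Between 12 h and 48 h without induction, 1834 genes rose (9.27% of those tested) and 2093 fell (10.6%) at an adjusted p under 0.05 (limma, two-sided, Benjamini-Hochberg over 19775 genes, n = 2 and 3). Most changes were small: the median rise among called genes was 0.53 and the median fall -0.47 (log2), and a difference of at least 2-fold was seen for 79 genes upwards and 73 downwards, of which 78 and 72 passed the test. The median over all genes was -0.06. Other scalings moved the split between directions, to 873 higher and 1723 lower after quantile normalization and to 2403 higher and 1288 lower with each array centred on its median. The falls lay largely among dim genes. With those left out, 1618 of the 1834 rises and 658 of the 2093 falls were still called. Of the 1000 brightest genes 6.8% were called higher and 1.9% lower. Leaving out 48 h replicate 1, 2 or 3 left 501, 300 or 293 genes higher and 385, 169 or 176 lower, and leaving out 12 h replicate 2 left 1171 higher and 1402 lower. Where this left 1 array at a time, that array was assumed to vary like the other times, which alone gave the spread. With the 3′/5′ signal as a covariate in a fit of all 14 arrays, 412 of the 1834 rises and 99 of the 2093 falls were still called. At 24 h against 12 h no gene rose and 1 fell, with 4062 genes at an unadjusted p under 0.05, and a fit of all 14 arrays called 152 and 161. Without 12 h replicate 1 that comparison held 1051 rises and 549 falls, without 12 h replicate 2 it held 48 and 15, and without 24 h replicate 2 it held 22 and 104, each with a lone array in 1 arm and the spread taken from the other times. The rises and falls were spread over other probe sets unequally: of 1322 risen genes with a further probe set, 515 (39.0%) had another one called higher, and of 992 fallen genes 234 (23.6%) had another one called lower. Another one was called in the opposite direction for 96 (7.26%) of these risen and 25 (2.52%) of these fallen genes. The same shares over all genes with a further probe set were not counted.

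The largest rise was that of FOS, the immediate-early AP-1 subunit. Its signal was 6.35 and 5.15 at 12 h, then 6.76 and 6.65, and 48 h arrays read 8.06, 8.14 and 8.0, a difference of 2.32 ± 0.26 (log2, SE, adjusted p = 0.00393). All 48 h arrays lay above all earlier arrays, and the 12 h arrays were the least alike. ANO1, a calcium-activated chloride channel, was at 5.64 and 5.22, then 6.18 and 5.31, then 7.68, 7.71 and 7.55, a rise of 2.22 ± 0.22 (adjusted p = 0.0033). Its 24 h arrays overlapped the 12 h range and its 48 h arrays stood clear of both, although its further probe set changed by 0.24 and was not called.

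Other leading rises included ion channels and pumps, grouped after their values were seen. The share of such genes among all genes was not counted. SCN2B, a sodium channel β subunit, went from 4.48 and 4.59 through 5.23 and 4.96 to 6.51, 6.10 and 6.38 (1.80 ± 0.14, adjusted p = 0.000987), while its other 2 probe sets changed by 0.03 and 0.13 and were not called. KCND2, a voltage-gated potassium channel, went from 5.48 and 5.42 through 5.97 and 5.46 to 7.0, 7.16 and 7.06 (1.62 ± 0.14, adjusted p = 0.00167). ATP2B2, a calcium pump of the plasma membrane, rose by 1.37 ± 0.17 (adjusted p = 0.00525). Of its 5 further probe sets 1 was called, at 0.76, and the others read 0.02 to 0.21. The organic anion transporter SLC22A9 rose by 1.42 ± 0.11 (adjusted p = 0.000987), from 8.06 and 8.25 to 9.63, 9.58 and 9.5. In each of these genes the 24 h arrays lay nearer to the 12 h arrays than to the 48 h arrays. The soluble guanylate cyclase subunit GUCY1B1, the receptor enzyme for nitric oxide, stood at 8.45 and 7.97, then 8.52 and 8.04, then 9.71, 9.63 and 9.83, a rise of 1.51 ± 0.17 (adjusted p = 0.00393), and its further probe set rose by 2.27. CYP39A1, an oxysterol hydroxylase of bile acid synthesis, rose by 1.45 ± 0.18 (adjusted p = 0.00525), and its other 2 probe sets rose too, by 1.06 and 1.08.

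The remaining leading rises were TRIM2, a ubiquitin ligase (1.58 ± 0.17), the phosphoinositide phosphatase MTMR4 (1.58 ± 0.20), GK3 (1.42 ± 0.17) and neuropeptide W, NPW (1.35 ± 0.13). MTMR4 differed from the others in its timing: it was already at 9.19 and 8.99 at 24 h, close to the 9.49, 9.35 and 9.51 of 48 h, against 7.45 and 8.30 at 12 h. GK3 is a near copy of the glycerol kinase gene GK, and the probe set may read both. Of the 12 leading rises, 10 were called under every alternative that could be run for them, and MTMR4 and NPW each lost the call once.

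**Figure D2:**
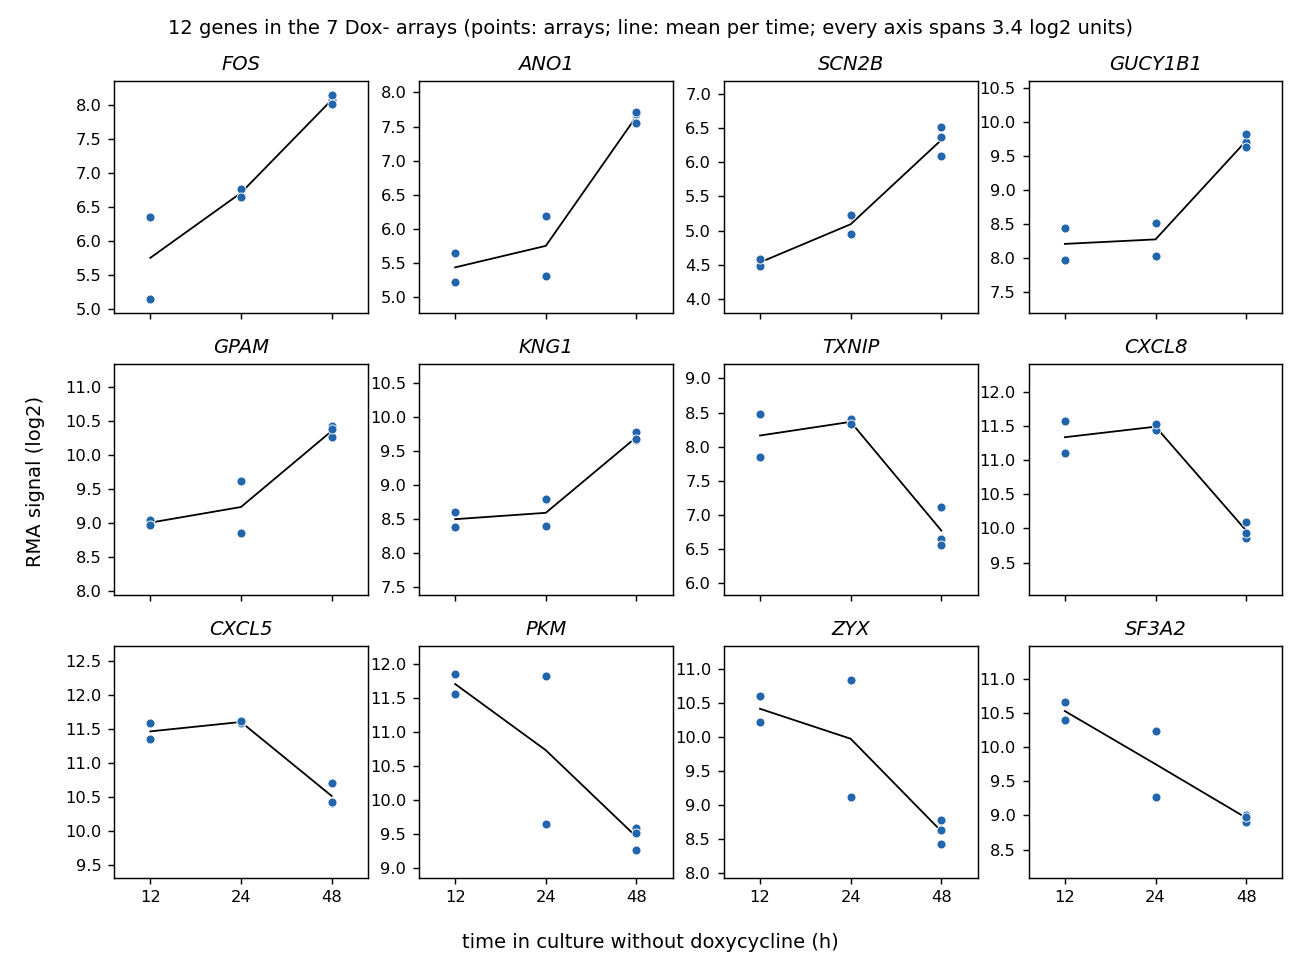
RMA signal (log2) of 12 genes on the 7 Dox− arrays by hours in culture; each point is an array, the line joins the means, and all axes span the same range. FOS, ANO1, SCN2B, GUCY1B1, GPAM and KNG1 are highest on all 3 arrays of 48 h; TXNIP, CXCL8 and CXCL5 are lowest there with both 24 h arrays near those of 12 h; and PKM, ZYX and SF3A2 have 1 of the 24 h arrays near the 12 h level and the other nearer the 48 h level.

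Genes of cholesterol synthesis and other SREBP2 targets rose together. Of 19 measured members 12 rose (63.2%, against 9.27% of all genes), none fell and 7 did not pass. The median change was 0.44 (log2) against -0.06 over all genes. STARD4, a sterol carrier, had signals of 9.12 and 8.61 at 12 h, then 9.44 and 9.12, then 9.89, 9.82 and 9.84 (0.98 ± 0.15, adjusted p = 0.00821). FDPS, farnesyl diphosphate synthase, was at 11.85 and 11.86, then 12.08 and 11.89, then 12.64, 12.55 and 12.68 (0.77 ± 0.10, adjusted p = 0.0055). The arrays of 48 h lay above all others for both genes, and FDPS was also higher at 48 h than at 24 h (0.63, adjusted p = 0.0244). EBP, the sterol isomerase, rose by 0.92 ± 0.17 and SQLE, squalene epoxidase, by 0.78 ± 0.16, while 1 of the 3 further probe sets of EBP fell, by 0.76. The feedback regulator INSIG1 rose by 0.74, IDI1 by 0.59 and MVD by 0.47. HMGCS1 (0.34), MSMO1 (0.29) and LSS (0.18) did not pass, nor did SREBF2 itself (0.04) or MVK, the 1 member below 0 (-0.24). The count was 5 without 48 h replicate 1 and 4 without replicate 2 or 3, reached 16 with the probe set of largest interquartile range, and was 8 with the 3′/5′ covariate. No alternative brought the list's median below 0.34.

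The lipogenic list moved less evenly. Of 17 genes of fatty acid synthesis and SREBP1 targets 7 rose (41.2%, against 9.27% of all genes) and 1 fell, with a median of 0.31. GPAM, which starts glycerolipid synthesis, was at 9.04 and 8.97, then 9.61 and 8.86, then 10.42, 10.26 and 10.37 (1.34 ± 0.18, adjusted p = 0.0055). SCD, the stearoyl-CoA desaturase, was at 11.81 and 11.92, then 12.05 and 11.93, then 12.74, 12.82 and 12.77 (0.91 ± 0.10, adjusted p = 0.00393), and its 3 further probe sets rose as well, by 1.46 to 1.93. Both genes were clear of every earlier array at 48 h. The transcription factor SREBF1 rose by 0.79 ± 0.11, LPIN1, a phosphatidate phosphatase, by 0.82 ± 0.21, ELOVL6, a fatty acid elongase, by 0.67, ACACA, acetyl-CoA carboxylase 1, by 0.59 and the carbohydrate-responsive factor MLXIPL by 0.65. The mitochondrial acetyl-CoA carboxylase ACACB fell by 0.43, and FASN (0.14), ACLY (0.24) and FADS2 (0.08) did not pass. The further probe set of SREBF1 stood at -0.42, and 1 of 2 further probe sets of LPIN1 fell by 0.55. Without 48 h replicate 1, 2 or 3 the count of rises was 3, 4 or 3.

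**Figure D3:**
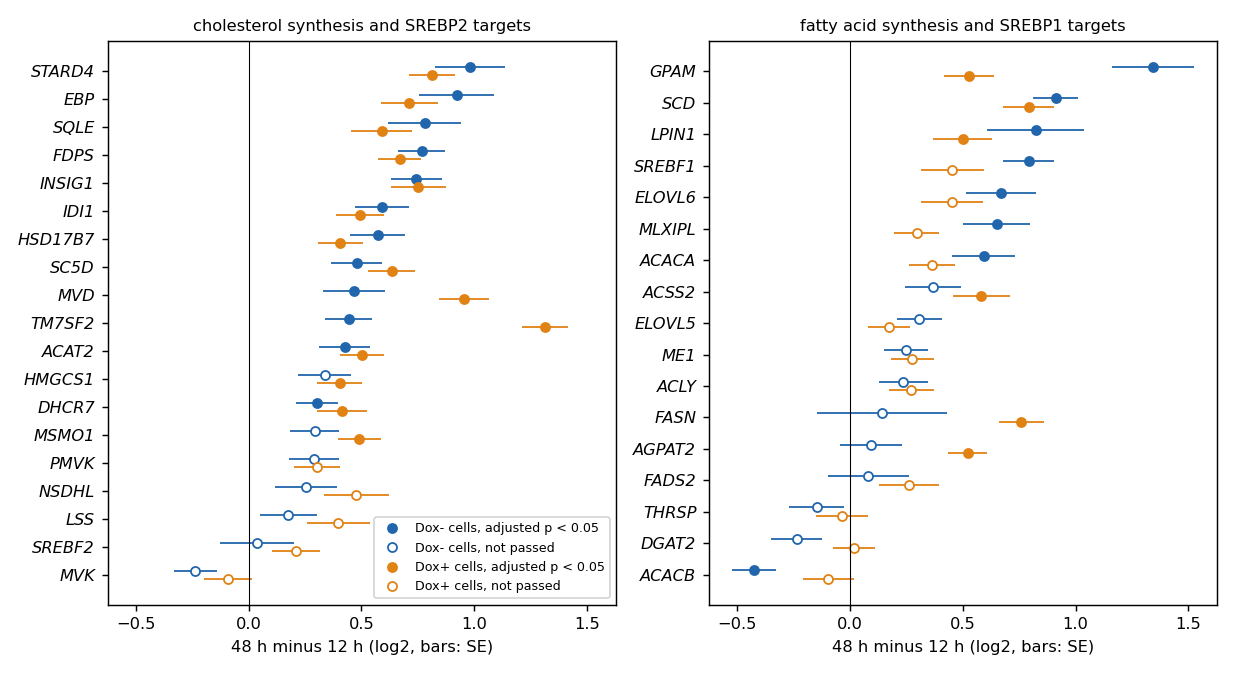
Difference between 48 h and 12 h (log2, points, with SE as bars) for 19 genes of cholesterol synthesis (left) and 17 of fatty acid synthesis (right), in Dox− and in Dox+ cells; filled points passed at an adjusted p under 0.05. In Dox− cells 12 sterol genes passed, all above 0, with a median of 0.44, and 14 passed in Dox+ cells with a median of 0.50.

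Both lipid lists changed in the same direction in the induced cells, whose arrays are separate from the untreated ones. From 12 h to 48 h in Dox+ cells 14 of the 19 sterol genes rose and none fell (median 0.50), and 6 of the 17 lipogenic genes rose and none fell (median 0.36), beside 5.64% of all genes higher and 3.15% lower there. The Dox+ 12 h arrays also had high 3′ over 5′ signals (2.26 and 1.85 for ACTB).

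Of 20 FOXO-responsive and starvation genes measured, 7 rose (35%, against 9.27% of all genes), 1 fell and 12 did not pass, with a median of 0.23. IRS2, the insulin receptor substrate, was at 8.45 and 8.26, then 8.78 and 8.53, then 9.51, 9.29 and 9.49 (1.08 ± 0.12, adjusted p = 0.00393). KLF9, a Krüppel-like factor induced by glucocorticoids, rose by 1.28 ± 0.16 (adjusted p = 0.00525) and BCL6, a transcriptional repressor, by 1.07 ± 0.14 (adjusted p = 0.00525). Both further probe sets of BCL6 rose too, whereas none of the 4 further ones of KLF9 was called (0.01 to 0.31). IRS2 passed between 48 h and 24 h as well (0.77), and the sestrins SESN3 (0.74) and SESN1 (0.59), IGFBP1 (0.57) and KLF15 (0.40) completed the rises. The member that fell was TXNIP, a thioredoxin inhibitor whose transcription follows cellular glucose, with 8.48 and 7.84 at 12 h, then 8.40 and 8.33, then 6.64, 7.11 and 6.55 (-1.39 ± 0.20, adjusted p = 0.00664). Both 24 h arrays kept the 12 h level and all 48 h arrays were lower, so that the difference from 24 h was -1.60 (adjusted p = 0.00901). FOXO1 (-0.17) and FOXO3 (0.32) did not pass. The count of risen members was 4 without 48 h replicate 1, 3 without replicate 2 or 3, and at most 9 under any alternative.

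Chaperones of the unfolded protein response moved in both directions. Of 20 measured, 7 rose (35%, against 9.27% of all genes) and 1 fell (5%, against 10.6%), with a median of 0.31. HERPUD1, a component of endoplasmic reticulum-associated degradation, was at 10.73 and 10.45, then 10.83 and 10.46, then 11.53, 11.49 and 11.46 (0.90 ± 0.13, adjusted p = 0.00711), although its further probe set read 0.20 and was not called. DNAJB9, a co-chaperone of HSPA5, rose by 0.67 ± 0.12 (adjusted p = 0.0109), and both its further probe sets rose too. DNAJB11 rose by 0.67, PDIA3 by 0.55, SDF2L1 by 0.44, PDIA4 by 0.39 and HSPA5, the main chaperone of the compartment, by 0.35 ± 0.10 (adjusted p = 0.0373). CALR, calreticulin, fell from 11.89 and 12.27 at 12 h through 11.25 and 11.67 to 11.27, 11.33 and 11.36 (-0.76 ± 0.15, adjusted p = 0.0137), and its 2 further probe sets fell by 1.68 and 1.92. XBP1 (0.24) and ATF6 (-0.10) did not pass. The count of rises was 3, 2 or 3 without 48 h replicate 1, 2 or 3, and 1, DNAJB9, where a further probe set had to pass as well.

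The promoters of this list were searched for the element that the pathway's factors bind. The endoplasmic reticulum stress element was searched as CCAAT, 9 bases and CCACG, on both strands, in RefSeq windows (GRCh38.p14) from 250 bases before to 50 after each start, and no overlap with another motif was examined. It was found in 7 of the 19 chaperone genes with a window (36.8%) and in 18 of 15384 genes of the array with one (0.117%). It is printed here for 4 of the 7, HSPA5, which rose, CALR, which fell, and HSP90B1 and XBP1, which did not pass, 5′ to 3′ along the strand on which the element reads forward, with both ends of the element in capitals.
HSPA5 (chr9:125241386-125241414, gene on the minus strand): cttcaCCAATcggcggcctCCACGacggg
CALR (chr19:12938379-12938407, gene on the plus strand, element on the opposite strand): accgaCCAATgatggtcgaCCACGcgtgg
HSP90B1 (chr12:103930211-103930239, gene on the plus strand): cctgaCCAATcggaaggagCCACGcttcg
XBP1 (chr22:28800598-28800626, gene on the minus strand): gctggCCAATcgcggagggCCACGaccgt
The element ends 48 bases before the start in HSPA5, 207 in CALR, 176 in HSP90B1 and 34 in XBP1. The changes at 48 h were 0.35 for HSPA5, -0.76 for CALR, 0.75 for HSP90B1 (adjusted p = 0.0912) and 0.24 for XBP1. The other 3 genes with the element, CANX (0.30), CRELD2 (0.33) and PDIA6 (0.21), did not pass, so that of the 7 genes 1 rose, 1 fell and 5 did not pass, with CALR alone below 0. A match of letters is a description and shows no binding.

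Secreted liver proteins rose in part. Of 53 plasma proteins 17 rose (32.1%, against 9.27% of all genes) and 2 fell (3.77%, against 10.6%), with a median of 0.12, so that 34 did not pass. KNG1, kininogen, was at 8.38 and 8.60, then 8.78 and 8.39, then 9.77, 9.66 and 9.67 (1.20 ± 0.13, adjusted p = 0.00393). F2, prothrombin, was at 9.01 and 9.13, then 9.29 and 8.96, then 9.90, 9.89 and 10.01 (0.87 ± 0.12, adjusted p = 0.0059). In both genes all 48 h arrays were above every earlier one, and both passed against 24 h (1.11 and 0.81). The carboxypeptidase CPB2 rose by 0.86 ± 0.14 and the complement regulator CFI by 0.78 ± 0.13, and further rises included PROS1 (0.74), C4BPA (0.70), CFB (0.66), F10 (0.61) and TF (0.51). SHBG (-0.37) and LBP (-0.48) fell. ALB, TTR (-0.05), SERPINA1 (-0.16) and the fetal marker AFP (-0.38 ± 0.14, adjusted p = 0.0745) did not pass. The count of rises ran from 2, where a second probe set also had to pass, to 22, and was 10, 8 or 8 without 48 h replicate 1, 2 or 3.

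Apolipoproteins gave 4 rises (25%, against 9.27% of all genes) and 1 fall (6.25%, against 10.6%) among 16. APOE was at 10.67 and 11.19, then 11.74 and 11.67, then 12.27, 12.22 and 12.31 (1.33 ± 0.14, adjusted p = 0.00393), and its 24 h arrays lay between the other times. APOM rose by 0.59, APOA1 by 0.52 and APOB by 0.47. With the 3′/5′ covariate none of these rises was called, and without 48 h replicate 1, 2 or 3 the list kept 2, 1 or 1.

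Bile acid genes gave 6 rises (27.3%, against 9.27% of all genes) and no fall among 22, led by SLC51B, the β subunit of the organic solute transporter. It was at 7.04 and 7.16, then 7.23 and 6.63, then 8.20, 8.25 and 8.53 (1.23 ± 0.17, adjusted p = 0.00606), with the 48 h arrays clear of the rest. ACOX2, a side-chain oxidase of bile acid synthesis, rose by 0.60, the hormone FGF19 by 0.54 and the exporter ABCC3 by 0.52. That count was 1, 2 or 1 without 48 h replicate 1, 2 or 3, and 2 without 12 h replicate 2. Among 38 cytochromes P450 and conjugating enzymes 7 rose (18.4%, against 9.27% of all genes) and 6 fell (15.8%, against 10.6%). ADH4, an alcohol dehydrogenase (1.30 ± 0.17, adjusted p = 0.00525, none of its 3 further probe sets called), and CYP1A1 (0.91 ± 0.13, adjusted p = 0.00601) went upwards. CYP1A2 (-0.62) and CYP2D6 (-0.60) went downwards. CYP1A1 and CYP1A2, neighbouring targets of the aryl hydrocarbon receptor, thus went in opposite directions, CYP1A1 from 9.12 and 8.73 to 9.86, 9.85 and 9.80 and CYP1A2 from 6.81 and 6.50 to 6.11, 6.04 and 5.98. Of 22 genes of amino acid catabolism 7 rose (31.8%) and 4 fell (18.2%). HAL, histidase (0.84), ASL, argininosuccinate lyase (0.79), and FAH, fumarylacetoacetase (0.72), were among the rises and PRODH, proline dehydrogenase (-0.68), among the falls. The other probe set of FAH was called in the opposite direction (-0.67). Of 21 liver transcription factors 4 rose (19%) and 3 fell (14.3%), with HNF4G at 1.13 ± 0.15 and GATA6 at -0.57 ± 0.11, whose further probe sets read -0.09 and -0.11. Without 48 h replicate 1, 2 or 3 the rises numbered 3, 2 or 2 in the P450 list, 3 in amino acid catabolism and 1 among the factors, and the falls at most 2.

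NRF2 targets gave 10 rises (45.5%, against 9.27% of all genes) and 1 fall (4.55%, against 10.6%) among 22, with a median of 0.25. PIR, pirin, rose by 0.88 ± 0.15 (adjusted p = 0.0109), the cystine transporter SLC7A11 by 0.67 and PGD and TKT of the pentose phosphate pathway by 0.57 and 0.55. Of the 2 further probe sets of PGD 1 was called lower (-0.53) and the other read -0.07. NQO1 (0.23) and TXNRD1 (0.13), canonical members, did not pass, and the member that fell was EPHX1, microsomal epoxide hydrolase (-1.59 ± 0.39). No NRF2 target passed between 48 h and 24 h, where the median was 0.07, and 3 rises were called with the 3′/5′ covariate, 3, 3 or 2 without 48 h replicate 1, 2 or 3, and 4 without 12 h replicate 2.

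The largest falls had a different shape from the rises. PKM, the pyruvate kinase of glycolysis, was at 11.85 and 11.55 at 12 h and at 9.26, 9.58 and 9.52 at 48 h (-2.24 ± 0.46, adjusted p = 0.0152), but its 24 h arrays read 9.64 and 11.81. ZYX, the focal adhesion protein zyxin, read 10.60 and 10.23, then 9.11 and 10.83, then 8.43, 8.64 and 8.77 (-1.80 ± 0.38, adjusted p = 0.0159). TLN1, talin, read 8.58 and 8.55, then 7.15 and 9.17, then 6.93, 7.11 and 6.83 (-1.61 ± 0.43, adjusted p = 0.0295), and neither of its further probe sets was called, whereas those of PKM (-0.55) and ZYX (-1.86) were called lower. In all of them 24 h replicate 1 had the 48 h level or came near it and 24 h replicate 2 the 12 h level or higher. Expressed as the share of the way from the 12 h mean to the 48 h mean, 11 of the 12 leading falls had replicate 1 past 0.7 and replicate 2 under 0.35, and none of the 12 leading rises had.

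The other genes of that shape were MTSS2 (-2.12), TRAPPC1 (-2.10), PDLIM7 (-1.99), FKBP8 (-1.62), TUBB4A (-1.61), EPHX1 (-1.59), SF3A2 (-1.57) and PTPRO (-1.52). None of the further probe sets of PDLIM7 (6) and PTPRO (2) was called. EPHX1 read 10.39 and 10.21, then 8.89 and 10.72, then 8.58, 8.77 and 8.80. The exception was TMEFF2, which fell by 1.91 from 12 h arrays that themselves read 5.13 and 7.02. None of these 12 genes passed between 48 h and 24 h, and only SF3A2, a splicing factor subunit, was called under every alternative, from 10.40 and 10.66 through 9.27 and 10.24 to 8.90, 9.01 and 8.98 (adjusted p = 0.00659). Over all 2093 falls the median share of the way was 0.85 for replicate 1 and 0.53 for replicate 2, and over the 1834 rises it was 0.74 and 0.33.

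The 1 gene lower at 24 h was PPP1CB, a catalytic subunit of protein phosphatase 1. It was at 10.68 and 10.61, then 9.41 and 9.63, then 9.20, 9.22 and 9.18, a difference of -1.12 at 24 h and -1.44 ± 0.10 at 48 h (adjusted p = 0.000987). Its 3 other probe sets read 0.24 to 0.70, and 1 of them was called higher.

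The chemokines CXCL8 and CXCL5 fell between 24 h and 48 h. CXCL8, interleukin 8, was at 11.57 and 11.10, then 11.45 and 11.54, then 9.87, 10.10 and 9.94 (-1.37 ± 0.14, adjusted p = 0.00393), and CXCL5 was at 11.58 and 11.35, then 11.59 and 11.62, then 10.41, 10.71 and 10.43 (-0.95 ± 0.13, adjusted p = 0.00536). Both 24 h replicates stood with the 12 h arrays, and the groups did not overlap with 48 h. Against 24 h the differences were -1.53 (adjusted p = 0.0042) and -1.09 (adjusted p = 0.00871). Among 26 NF-κB targets and chemokines 5 fell (19.2%, against 10.6% of all genes) and none rose, with a median of -0.17. The other 3 that fell, CCL2 (-0.49), TRAF1 (-0.41) and IL6 (-0.39), did not pass between 24 h and 48 h. CCL2, also a chemokine, was already at a mean of 3.87 at 24 h, against 4.47 before and 3.98 after. TNFAIP3 (-0.12), NFKBIA (-0.11) and ICAM1 (-0.17) did not pass. From 12 h to 48 h the further probe sets of CXCL8 and CXCL5 read -0.32 and -0.31 to -0.05, and none was called. From 24 h to 48 h that of CXCL8 was called lower (-1.46, adjusted p = 0.00594), as was 1 of CXCL5 (-0.93, adjusted p = 0.0424). The other of CXCL5 read -0.61 and was not called. The 2 called ones had higher means at 24 h (9.76 and 9.54) than at 12 h (8.62 and 8.67). The means of the brightest probe sets lay closer together, at 11.49 and 11.60 at 24 h against 11.34 and 11.47 at 12 h. Without 48 h replicate 1, 2 or 3 the falls of the list numbered 3, 2 or 2.

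Genes of matrix and cytoskeleton gave 8 falls (19%, against 10.6% of all genes) and 2 rises (4.76%, against 9.27%) among 42, with a median of -0.20. MYL9, a myosin light chain, fell by 1.19 ± 0.27 and the dimmer COL5A1 by 0.75 ± 0.10, from a mean of 5.44 to 4.69. LOXL2, a lysyl oxidase, read 7.07 and 7.23, then 6.97 and 7.19, then 6.46, 6.59 and 6.34 (-0.69 ± 0.12, adjusted p = 0.0109). LOXL2 passed between 48 h and 24 h as well (-0.61), whereas MYL9 at 24 h read 6.34 and 7.53 and followed the shape of ZYX. ITGA6 (0.55) and COL5A2 (0.41) rose, and FN1 (0.32), ACTB (-0.12) and VIM (-0.37) did not pass. The falls numbered 1 to 12 across the alternatives, and 2, 2 and 1 without 48 h replicate 1, 2 and 3. Interferon-stimulated genes gave 5 falls (13.2%, near the 10.6% of all genes) and no rise among 38, led by ISG15 (-0.52 ± 0.10, adjusted p = 0.0133). Their median was -0.18, and no fall was left without any 1 of the 48 h arrays. Of 21 oncofetal genes 3 fell (14.3%, against 10.6% of all genes), SPINK1 (-0.53), SOX9 (-0.52) and PEG10 (-0.35). The other probe set of PEG10 read 0.86, the opposite direction, and that of SOX9 read -0.11 and was not called.

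Immediate-early genes did not move as a group, with 13.6% higher and 13.6% lower, against 9.27% and 10.6% of all genes. FOS and EGR1 rose, EGR1 from 10.82 and 10.60 through 10.96 and 11.01 to 11.56, 11.44 and 11.47 (0.78 ± 0.11, adjusted p = 0.0055), and 1 further member of the 22 rose and 3 fell, among them FOSL1 (-0.71 ± 0.11) and JUNB (-0.52 ± 0.14), and without 12 h replicate 1 the rises numbered 9. Of the other probe sets of EGR1 1 was called higher and 1 lower (1.92 and -0.68). Of 44 replication genes 5 rose and 1 fell (median 0.08), and of 44 mitotic genes 5 rose and 2 fell (median 0.09), so that 11.4% of each list rose, near the 9.27% of all genes, and 2.27% and 4.55% fell, against 10.6%. Among the mitotic genes PLK1 (-0.90 ± 0.26) and PKMYT1 (-0.80 ± 0.15) fell and WEE1 (0.56 ± 0.11) rose. CCNG2, a cyclin of quiescent cells, rose by 0.76 ± 0.12 among 3 rises (15.8%) and 1 fall (5.26%) in 19 genes of quiescence and CDK inhibition. In Dox+ cells 16 of the 44 mitotic genes were lower at 48 h than at 12 h, and none higher, beside 3.15% of all genes lower and 5.64% higher there.

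**Figure D4:**
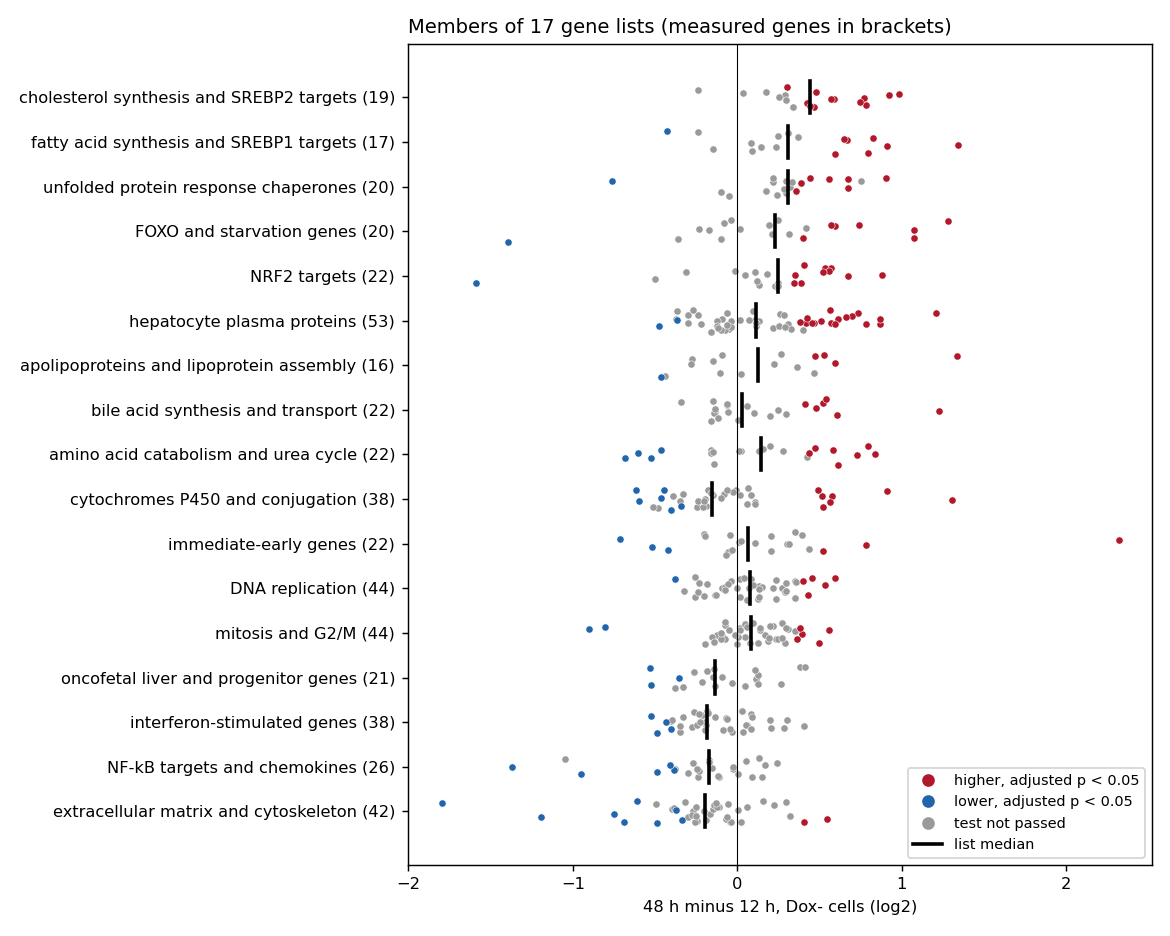
Difference between 48 h and 12 h in Dox− cells (log2) for each measured member of 17 gene lists; red and blue points passed upwards and downwards at an adjusted p under 0.05, grey points did not, and the bar is the list's median. Cholesterol synthesis has the highest median (0.44, 12 of 19 higher), and matrix and cytoskeleton the lowest (-0.20, 8 of 42 lower).

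The other lists are set against the 9.27% of all genes that rose and the 10.6% that fell. Rises and falls numbered 1 and 2 of 20 YAP/TEAD targets, 0 and 0 of 14 TGF-β targets, 4 and 1 of 35 ribosome biogenesis genes, 2 and 1 of 22 genes of fatty acid oxidation and PPARα, 1 and 3 of 20 glycolysis genes, 2 and 2 of 20 hypoxia genes, and 0 and 1 of 5 MondoA targets, the fall being TXNIP. They numbered 2 and 0 of 14 genes of gluconeogenesis and glycogen, 4 and 2 of 32 ATF4 targets, 4 and 0 of 15 heat shock chaperones, 4 and 0 of 27 autophagy and lysosome genes, 1 and 0 of 12 metallothionein and zinc genes, 3 and 3 of 30 junction genes and 3 and 0 of 31 oxidative phosphorylation genes. The rises came to 26.7% of the heat shock, 14.8% of the autophagy and 14.3% of the gluconeogenesis list, and the falls to 15% of the glycolysis list. Among these, SLC7A5, an amino acid transporter, fell by 0.67 ± 0.11 and PPP1R3B, a glycogen-targeting subunit, rose by 0.70 ± 0.13. Markers of other cell types had at 12 h a median signal of 4.69 for 10 endothelial, 5.96 for 11 leukocyte and 5.63 for 10 stellate and fibroblast markers, against 6.49 and 6.51 over all genes on the 12 h arrays, of which 0 and 1, 1 and 2, and 1 and 2 rose and fell. The summed signal of the endothelial markers was 48.5 to 49.2 at 12 h and 46.1 to 46.3 at 48 h. The stellate and fibroblast marker LUM, lumican, stood well above the rest at 9.07 and fell by 0.42.

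The step from 24 h to 48 h, over which the 3′/5′ signal hardly changed, held 137 rises (0.693% of genes) and 90 falls (0.455%). It shares its 48 h arrays with the comparison above, and 128 of its rises and 61 of its falls were also called against 12 h. It rested on how the 24 h replicates were weighed: without 24 h replicate 1 there were 495 rises and 415 falls, and without 24 h replicate 2 none passed in either direction (2699 genes had an unadjusted p under 0.05 with all arrays), while without 48 h replicate 1, 2 or 3 there were 1, 18 or 0 rises and 4, 24 or 4 falls. Among the rises were 4 lipogenic genes (GPAM, SCD, SREBF1 and MLXIPL), 5 plasma proteins (KNG1, F2, C4BPA, CFB and ITIH2), HERPUD1, IRS2 and SLC51B. Genes outside the lists, named after their values were seen, included DPYD, which degrades pyrimidines (1.5), the endocrine transcription factor RFX6 (1.38), the lipid regulator ANGPTL8 (1.35) and PNPLA3, a lipid droplet hydrolase (1.07). The falls were led by the keratin-associated KRTAP3-1 (-1.71), TXNIP (-1.60), CXCL8 (-1.53), the long non-coding RNA UCA1 (-1.18) and PAPSS2, a sulfate donor synthase (-1.17), and included the Notch ligand JAG1 (-1.09), the ephrin EFNB2 (-1.14) and the caveolins CAV1 (-0.60) and CAV2 (-0.79). UCA1 read 6.85 and 6.96 at 24 h and 5.63, 6.0 and 5.56 at 48 h.

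Genes that cover long stretches of the genome were frequent among the rises from 24 h to 48 h. In RefSeq (GRCh38.p14), 49 of the 137 rises (35.8%) spanned more than 200 kb, against 1398 (7.08%) of the 19738 genes with a span and 4 of the 90 falls (4.44%). The share of genes called higher was 0.423% under 10 kb, 0.457% from 10 to 50 kb, 0.583% from 50 to 200 kb, 2.39% from 200 to 500 kb and 7.4% over 500 kb. The longest, named after their values were seen, were NRXN3, a synaptic adhesion gene of 1698 kb (1.01), FHIT, a hydrolase of a fragile site, of 1504 kb (0.61), GALNT13, a glycosyltransferase of 1388 kb (0.76), and GPHN, gephyrin, of 1227 kb (0.77). The channel KCND2 (477 kb) and the pump ATP2B2 (384 kb), among the leading rises from 12 h, were also of this class, as was DPYD (843 kb). FHIT dipped, with a 12 h mean of 5.75, then 5.24, then 5.84. Against 12 h it was not called (0.10, adjusted p = 0.551), whereas NRXN3, GALNT13 and GPHN were (1.01, 1.31 and 0.85). PARD3B, PITPNC1 and TBC1D5, also over 200 kb, were likewise lowest at 24 h and not called against 12 h. Of all 137 rises, 128 were also called against 12 h. The median change from 12 h to 24 h was -0.13 over 500 kb, -0.09 under 10 kb and 0.03 from 50 to 200 kb. Of the 49 risen genes over 200 kb, 33 had another probe set, whose changes had a median of 0.15, and 13 had one above 0.5. In another 13 of these 33 genes, all other probe sets lay within 0.25 of 0. The long genes were 31.5% of 495 rises without 24 h replicate 1, which leaves 1 array at 24 h, 31.0% of 388 in the fit of all 14 arrays, and 22.2% (4 of 18) without 48 h replicate 2. Without 48 h replicate 1 there was 1 rise, and without 24 h replicate 2 or 48 h replicate 3 there was none, so no share could be given. Against 12 h the long genes were 14% of the rises and 6.42% of the falls, and in Dox+ cells they were 11.2% of 1388 rises from 24 h to 48 h. Unlike in Dox− cells, the 3′ minus 5′ signal of ACTB changed over that step in Dox+ cells, from 1.35 and 1.45 to 0.79 to 1.03. Genes of different span also differed in signal, with a median of 5.56 under 10 kb, 7.32 from 50 to 200 kb and 5.09 over 500 kb.

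**Figure D5:**
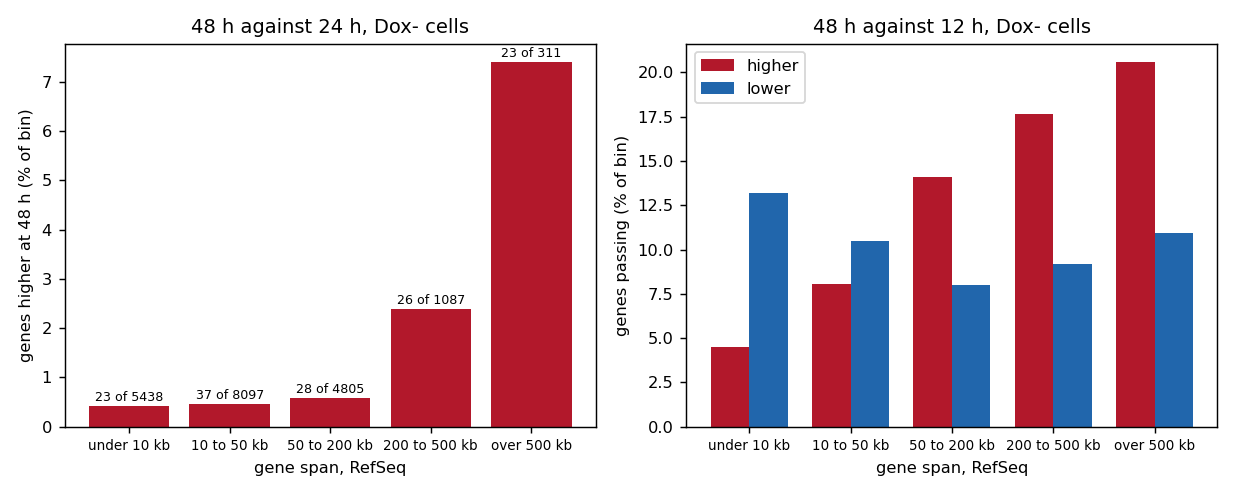
Share of genes in each class of RefSeq gene span that passed at an adjusted p under 0.05 in Dox− cells; left, higher at 48 h than at 24 h, with counts above the bars; right, higher (red) and lower (blue) at 48 h than at 12 h. Genes over 500 kb were called higher in 7.4% of cases on the left, against 0.423% under 10 kb.

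The time course of induced cells shares no array with that of untreated cells. In both courses, however, the 12 h arrays had higher 3′ minus 5′ signals than the 48 h arrays (ACTB in Dox+ cells, 2.26 and 1.85 against 0.79 to 1.03). Agreement between the courses therefore moves with this measure as well as with time, and its part was not tested. Of the 1834 rises in Dox− cells 483 (26.3%) also rose in Dox+ cells and 23 fell, where 5.64% of all genes rose, and of the 2093 falls 114 (5.45%) also fell and 22 rose, where 3.15% of all genes fell. Without regard to the test, the Dox+ change was above 0 for 80.7% of the rises, against 41.5% of all genes, and below 0 for 80.7% of the falls, against 58.5% of all genes. FOS rose in both, from 5.75 to 8.07 in Dox− and by 3.54 in Dox+ cells, and SCN2B (1.47), KCND2 (2.77), CYP39A1 (1.15), SLC22A9 (1.37), KNG1 (0.98) and CYP1A1 (1.28) rose in Dox+ cells as well. TXNIP (-1.05), CXCL8 (-0.49) and CXCL5 (-0.55) also fell there.

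Other changes differed between the time courses. The test of the difference between both time courses, passed with and without array weights, found 121 genes (0.612%) with a higher and 95 (0.48%) with a lower change in Dox+ cells. Without Dox− 12 h replicate 1 these were 423 and 791, without replicate 2 of that group 249 and 216, without Dox+ 12 h replicate 1 they were 292 and 289, without its replicate 2 they were 186 and 130, and without Dox− 48 h replicate 3 they were 96 and 59. RFX6 went from 7.96 and 8.36 to 9.35, 9.24 and 9.45 in Dox− cells, a rise of 1.19 ± 0.18, and fell by 0.59 in Dox+ cells. TM4SF4, a tetraspanin-like membrane protein, went from 7.84 and 7.77 to 8.77, 8.69 and 8.96 in Dox− cells (0.99 ± 0.14) and fell by 0.87 in Dox+ cells. UCA1 moved the other way, falling by 1.07 ± 0.15 in Dox− cells and rising by 2.11 in Dox+ cells. GUCY1B1 (1.51 against 0.13), DPYD (1.26 against -0.31), ATP2B2 (1.37 against -0.31), ANGPTL8 (1.08 against -0.28), BCL6 (1.07 against 0.05) and CPB2 (0.86 against -0.15) passed this test with the larger change in Dox− cells.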

How the data were processed

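RNA from Hep3BTAp73β cells was hybridised to Affymetrix U133 Plus 2.0 arrays. The authors deposited RMA values on the log2 scale (R 3.5.1 per the submitters' notes, BRB-ArrayTools per the methods), after excluding outlier arrays, and no count or depth applies: the number of arrays limits the precision. The labels give DMEM as medium, with serum, whereas the paper's methods name RPMI with serum for Hep3B and other liver cancer lines. Of the probe sets, 62 controls, 1801 with several genes and 11721 without a gene were left out, and 41091 with 1 gene (41037 matched by Entrez identifier) gave 19775 genes, each read from its brightest probe set over all 14 arrays.

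The 7 Dox− arrays were fitted with lmFit and eBayes of limma 3.58.1 under R 4.3.3 (two-sided, 3 time groups, threshold 0.05 after Benjamini-Hochberg adjustment over all genes). The Dox+ arrays were fitted alike, and the difference between both time courses in all 14 arrays. The scripts were tested on simulated data. The 36 textbook gene lists hold 935 entries, 854 of them measured and the rest not analysed here. Named genes are the 12 largest rises and falls whose arrays did not overlap, up to 5 at 24 h, up to 4 called per list, 5 differences between the time courses in each direction and liver markers, and any others are said to be so or stand in a list. Members and lists were chosen with earlier results of these data known. Figures were drawn with matplotlib 3.10.9.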

Additional observations from a re-analysis of the deposited data

Results flagged for a closer look

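The change from 12 h to 48 h differed between Dox+ and Dox− cells in a test of the difference itself for 121 genes upwards and 95 downwards. The difference (Dox+ change minus Dox− change, log2) was 3.31 for RNASE7, 3.18 for CYP4F3, 3.18 for UCA1, 2.98 for CSTA and 2.44 for WFDC21P. Of these genes UCA1 and CSTA fell in Dox− cells, and the other 3 did not pass there. It was -2.70 for SPINK1, -2.02 for PCSK5, -1.86 for TM4SF4, -1.80 for GJA1 and -1.78 for RFX6. TM4SF4 and RFX6 rose in Dox− cells and fell in Dox+ cells.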

How the results depend on the processing

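Counts are given as higher and lower. From 12 h to 48 h (1834 and 2093), 873 genes were higher by quantile normalization, 3866 with every probe set tested, 1044 and 762 passed with array weights, 556 and 169 with the 3′/5′ covariate, 515 and 234 where another probe set also passed, 1288 were lower with centred arrays and 763 without dim genes; single arrays left out gave 293 to 2623 and 169 to 2555. The 2-fold counts (79 and 73) were 386 and 122 with the probe set of largest interquartile range, 456 and 140 with every probe set, 117 lower by quantile normalization, 744 and 505 at 1.5-fold, 4 and 10 at 3-fold, and 73 to 144 and 64 to 94 with arrays left out. At 24 h against 12 h (0 and 1) they were 152 and 161 with all 14 arrays, 460 and 98 with the largest interquartile range, 513 and 107 with every probe set, 2 higher without _x_at probe sets or with trend and robust options, 0 lower with only the arrays compared, array weights or the covariate, and 0 to 1051 and 0 to 549 with arrays left out. At 48 h against 24 h (137 and 90) they were 286 and 184 with only the arrays compared, 388 and 196 with all 14, 252 and 137 with trend and robust options, 465 and 251 with the covariate, 216 higher with array weights, 58 lower with the largest interquartile range, and 0 to 495 and 0 to 415 with arrays left out. The differences between the time courses (121 and 95) were 309 and 324 without array weights, 63 lower by quantile normalization, and 96 to 423 and 59 to 791 with arrays left out.

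Among the Dox− arrays, deviations of same-numbered arrays from their group means correlated at -0.09 to 0.08. At 12 h and at 24 h the deviations of the 2 arrays mirror each other, so these correlations cannot settle whether the replicate numbers pair the samples. Pairing of Dox− with Dox+ arrays was not examined. With the replicate block 677 and 511 genes passed from 12 h to 48 h, 0 and 0 at 24 h against 12 h, 39 and 27 at 48 h against 24 h, and 136 and 107 in the difference between the time courses.

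Single genes changed sign with the probe set of largest interquartile range (ATP6V1H -0.52, PEG10 0.86, IRF1 0.045, IFIT2 0.084, CD79A 0.013, FGB 0.67), without _x_at probe sets (APOA1 -0.068) and with the 3′/5′ covariate (GINS4 -0.20, HSPA4 -0.019). The causes were not tested. The 3′/5′ covariate and the second probe set were added after seeing the data.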
